A study of Macaca mulatta with 10 samples.

Results

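This account follows ACTC1, ACTG2, CNN1 and TPM2, genes of the contractile apparatus of muscle, through the differentiation of a rhesus macaque embryonic stem (ES) cell line toward liver cells. Its members are all probe sets that the platform annotation assigned to 1 of these 4 genes, 12 of the 44210 probe sets tested, or 4 of 13191 genes. ACTC1 (Entrez gene 697367) and CNN1 (716681) each had 1 probe set, ACTG2 (707447) had 3 and TPM2 (696604) had 7, and 0 probe sets were shared between a member and another gene. Affymetrix rhesus macaque arrays gave the expression values of the line, ORMES6, which grew undifferentiated on feeders of mouse embryonic fibroblasts and was then co-cultured with hESdF, fibroblast-like cells obtained from human ES cells, so that hepatic foci formed.

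The 10 arrays form 5 groups of 2. The groups are undifferentiated ES cells, cells at in vitro differentiation stage 2 (IVDS2), cells from the central foci of colonies at that stage (IVDS2-C), cells from the outer, peripheral area (IVDS2-P), and cells at in vitro differentiation stage 3 (IVDS3). All groups come from 1 line, ORMES6, and the series names the ES cells as its control. The labels do not say whether the 2 samples of a group came from separate cultures, so the p-values measure the spread between these samples, which may be technical, and the number of arrays limits their precision. In bulk RNA, fewer cells of a type and less RNA per cell cannot be told apart.

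Smooth muscle contracts when myosin pulls on actin filaments, with tropomyosin lying along the filament and calponin binding to it. ACTG2 encodes the gamma actin of visceral smooth muscle, ACTC1 the alpha actin of the heart, which is also made in early muscle of other kinds, CNN1 the calponin of differentiated smooth muscle, and TPM2 the beta tropomyosin, which both muscle and non-muscle cells use in different splice forms. Genes of this set respond in many cell types to serum response factor with its cofactors myocardin and MRTF, and to TGF-beta, so they are also read as signs of fibroblast activation and of tension on the actin skeleton.

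The deposited values are log2 values centred on each probe set's median over the 10 arrays. A value of 1 therefore means 2-fold above that median, and neither an absolute level nor a comparison of levels between genes or probe sets can be had from them. Probe sets were called at an adjusted p under 0.05 in a limma fit to all 10 arrays, and "rose" and "fell" are used for called changes. A change is given as the log2 fold change ± standard error (SE). Where arrays of groups are said not to overlap, this describes 2 arrays against 2 and is no test. How often this occurs over all probe sets was not counted.

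The 4 genes did not move together. ACTC1, ACTG2 and CNN1 had their highest means in ES cells and fell in IVDS3 cells, although for ACTC1 the ES and IVDS2 arrays overlapped. TPM2 was lowest in ES cells and highest in IVDS3 cells on the 2 probe sets that varied most. Within colonies at stage 2, 3 of the 7 TPM2 probe sets rose in the centre against the periphery and 2 of the 3 ACTG2 probe sets fell. Of all probe sets, 3.85% were called higher and 2.00% lower in that comparison. The ACTG2 calls and that of the TPM2 probe set MmugDNA.6751.1.S1_at were lost without certain single arrays and with only the 4 arrays compared.

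ACTC1, the cardiac alpha actin, was read by the probe set MmugDNA.40734.1.S1_at. Its values were 0.97 and 1.08 in ES cells, 0.23 and 1.03 in IVDS2 cells, -0.22 and -0.64 in IVDS2-C cells, -1.22 and 0.22 in IVDS2-P cells, and -4.14 and -2.83 in IVDS3 cells. Both IVDS3 arrays stood below all others, the 2 IVDS2-P arrays lay far apart, and the IVDS2 arrays overlapped with the ES arrays. In IVDS3 cells against ES cells, ACTC1 fell by 4.51 ± 0.51 on the log2 scale, a 22.8-fold difference (adjusted p = 0.000119).

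In IVDS3 cells against IVDS2 cells, ACTC1 fell by 4.12 ± 0.51 (17.3-fold, adjusted p = 0.000331). The loss was thus seen between the stages as well as against ES cells, and it held whichever array was left out. The stage 2 groups themselves were not called against ES cells. The difference was -0.39 ± 0.51 for IVDS2 (adjusted p = 0.729), -1.46 ± 0.51 for IVDS2-C (adjusted p = 0.0721) and -1.53 ± 0.51 for IVDS2-P (adjusted p = 0.108). The IVDS2-C difference was called without either IVDS2-P array (adjusted p = 0.0402) and with only the 4 arrays compared (adjusted p = 0.00837). Between the centre and the periphery ACTC1 differed by 0.07 ± 0.51 (adjusted p = 0.969), with the 2 IVDS2-P arrays on either side of the IVDS2-C arrays.

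In the order of its group means, ACTC1 ran from ES cells (1.03 ± 0.08) over IVDS2 (0.63 ± 0.57), IVDS2-C (-0.43 ± 0.30) and IVDS2-P cells (-0.50 ± 1.02) to IVDS3 cells (-3.48 ± 0.92; SD, n = 2 each). Among neighbours in this order, IVDS3 against IVDS2-P was called (-2.98 ± 0.51, adjusted p = 0.00178), and the other 3 pairs were not.

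ACTG2, the smooth muscle gamma actin, had a pair of probe sets that ran together and 1 that barely varied. The probe set MmugDNA.30998.1.S1_at had 1.93 and 1.97 in ES cells, -0.21 and -0.26 in IVDS2 cells, -0.65 and -1.20 in IVDS2-C cells, 0.65 and 0.03 in IVDS2-P cells, and -0.03 and 0.68 in IVDS3 cells. Mmu.4662.5.S1_at had 1.88 and 1.96 in ES cells, -0.09 and -0.11 in IVDS2 cells, -0.46 and -0.95 in IVDS2-C cells, 0.55 and 0.03 in IVDS2-P cells, and -0.03 and 0.54 in IVDS3 cells. On both, the ES arrays stood clear above the other 8, the IVDS2-C arrays were lowest, and IVDS2-P and IVDS3 arrays overlapped.

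ACTG2 fell in every differentiated group on this pair. By MmugDNA.30998.1.S1_at it fell against ES cells by 2.19 ± 0.28 in IVDS2 cells (4.55-fold, adjusted p = 0.00147), by 2.88 in IVDS2-C cells (7.34-fold, adjusted p = 0.000175), by 1.61 in IVDS2-P cells (3.05-fold, adjusted p = 0.00883) and by 1.63 in IVDS3 cells (3.09-fold, adjusted p = 0.0013). By Mmu.4662.5.S1_at the changes were -2.02, -2.62, -1.62 and -1.66 ± 0.24 for the same groups (adjusted p = 0.00112, 0.000135, 0.00448 and 0.000486). The IVDS2-P call of MmugDNA.30998.1.S1_at was lost without replicate 2 of ES (adjusted p = 0.0553) or replicate 2 of IVDS2-P (adjusted p = 0.0849), while that of Mmu.4662.5.S1_at held in every such fit.

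The remaining ACTG2 probe set, MmugDNA.411.1.S1_at, ranged over only 0.83 log2 units. It had -0.34 and -0.21 in IVDS3 cells, against 0.09 and 0.49 in ES cells. The groups did not overlap, and ACTG2 fell on it by 0.57 ± 0.15 (1.48-fold, adjusted p = 0.0149), a call lost without replicate 2 of ES (adjusted p = 0.0732) or replicate 1 of IVDS3 (adjusted p = 0.0929). Over the 10 arrays it correlated with MmugDNA.30998.1.S1_at at r = 0.541, while the other two correlated at r = 0.996.

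In the colony centre ACTG2 was lower than in the periphery on both main probe sets. The change of IVDS2-C against IVDS2-P was -1.27 ± 0.28 on MmugDNA.30998.1.S1_at (2.41-fold, adjusted p = 0.0291), and on Mmu.4662.5.S1_at the change was -1.0 ± 0.24 (adjusted p = 0.0417). The arrays of the groups did not overlap, yet both calls were lost without replicate 2 of IVDS2-C (adjusted p = 0.261 and 0.355) or replicate 1 of IVDS2-P (adjusted p = 0.202 and 0.257). Mmu.4662.5.S1_at also lost its call without either IVDS2 array (adjusted p = 0.0616), and both lost it with only the 4 arrays compared (adjusted p = 0.0683 and 0.084).

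Between IVDS2 and IVDS3 cells ACTG2 was not called. Against IVDS2 cells, IVDS3 cells differed by 0.56 ± 0.28 on MmugDNA.30998.1.S1_at (adjusted p = 0.171) and by 0.35 ± 0.24 on Mmu.4662.5.S1_at (adjusted p = 0.321). Against the colony centre, IVDS3 cells were higher by 1.25 ± 0.28 (adjusted p = 0.0145) and 0.96 ± 0.24 (adjusted p = 0.025), calls lost without replicate 2 of IVDS2-C (adjusted p = 0.0901 and 0.148) or replicate 2 of IVDS3 (adjusted p = 0.108 and 0.175). The order of the means was ES, IVDS2-P, IVDS3, IVDS2 and IVDS2-C from high to low on both, and only ES and IVDS2-P differed as neighbours.

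CNN1, the calponin of smooth muscle, was read by MmuSTS.3566.1.S1_at. It had 1.33 and 2.09 in ES cells, 0.12 and 0.57 in IVDS2 cells, 0.01 and -0.01 in IVDS2-C cells, -0.75 and -0.09 in IVDS2-P cells, and -1.31 and -0.90 in IVDS3 cells. The groups followed each other from high to low with no overlap between any pair of them. CNN1 fell against ES cells by 1.36 ± 0.29 in IVDS2 cells (2.57-fold, adjusted p = 0.02), by 1.71 in IVDS2-C cells (3.26-fold, adjusted p = 0.00337), by 2.12 in IVDS2-P cells (4.36-fold, adjusted p = 0.00345). In IVDS3 cells it fell by 2.81 (7.01-fold, adjusted p = 7.58e-05).

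The IVDS2 call was the least firm of these and was lost without replicate 2 of ES (adjusted p = 0.11) or replicate 1 of IVDS2 (adjusted p = 0.119), and with only the 4 arrays compared (adjusted p = 0.0507). CNN1 fell further in IVDS3 cells against IVDS2 cells, by 1.45 ± 0.29 (2.73-fold, adjusted p = 0.0051), a call that just missed the threshold without replicate 1 of IVDS3 (adjusted p = 0.0502). The centre and the periphery differed by 0.42 ± 0.29 (adjusted p = 0.508). As neighbours in the order of means, ES and IVDS2 differed, and the other 3 pairs were not called.

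TPM2, the beta tropomyosin, showed the largest changes of the 4 genes, on a pair of its 7 probe sets. MmuSTS.1894.1.S1_at had -4.02 and -5.41 in ES cells, -0.23 and 0.23 in IVDS2 cells, 0.93 and 1.87 in IVDS2-C cells, -2.77 and -1.92 in IVDS2-P cells, and 2.14 and 2.56 in IVDS3 cells. MmugDNA.5740.1.S1_s_at had -3.90 and -3.70 in ES cells, -0.26 and 0.26 in IVDS2 cells, 0.79 and 1.89 in IVDS2-C cells, -2.78 and -2.33 in IVDS2-P cells, and 2.35 and 2.44 in IVDS3 cells. The 5 groups did not overlap on either probe set and came in the same order, with ES lowest, then IVDS2-P, IVDS2 and IVDS2-C, and IVDS3 highest.

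TPM2 rose in all 4 differentiated groups on both of these probe sets. By MmuSTS.1894.1.S1_at it rose against ES cells by 4.71 ± 0.47 in IVDS2 cells (26.2-fold, adjusted p = 0.000506), by 6.11 in IVDS2-C cells (69.2-fold, adjusted p = 6.01e-05), by 2.37 in IVDS2-P cells (5.16-fold, adjusted p = 0.0168) and by 7.06 in IVDS3 cells (134-fold, adjusted p = 6.34e-06). By MmugDNA.5740.1.S1_s_at the same changes were 3.80 ± 0.32 (13.9-fold, adjusted p = 0.000247), 5.14 (35.2-fold, adjusted p = 2.49e-05), 1.25 (2.38-fold, adjusted p = 0.0488) and 6.19 (73.1-fold, adjusted p = 1.76e-06).

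The rise in the periphery was the smallest and the least firm. By MmuSTS.1894.1.S1_at its call was lost without replicate 2 of ES (adjusted p = 0.095) or replicate 2 of IVDS2-P (adjusted p = 0.145). By MmugDNA.5740.1.S1_s_at it was lost without any one of the 8 ES, IVDS2, IVDS2-P and IVDS3 arrays (highest adjusted p 0.286) and with robust variance moderation (adjusted p = 0.0515). The calls of the other 3 groups against ES cells held whichever array was left out.

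Between the colony areas TPM2 was higher in the centre. IVDS2-C stood above IVDS2-P by 3.75 ± 0.47 on MmuSTS.1894.1.S1_at (13.4-fold, adjusted p = 0.00251) and by 3.89 ± 0.32 on MmugDNA.5740.1.S1_s_at (14.8-fold, adjusted p = 0.000413), and both calls held without any one array. The whole IVDS2 culture lay between its centre and its periphery. On MmuSTS.1894.1.S1_at neither the periphery (-2.35 ± 0.47, adjusted p = 0.0586) nor the centre (1.4 ± 0.47, adjusted p = 0.149) was called against the whole culture. The periphery was called there with only the 4 arrays compared (adjusted p = 0.0456) and when p-values were adjusted over probe sets with 1 gene (adjusted p = 0.048). On MmugDNA.5740.1.S1_s_at the periphery was lower than the whole culture (-2.55 ± 0.32, adjusted p = 0.0177), a call lost without replicate 2 of IVDS2 (adjusted p = 0.103) or replicate 1 of IVDS2-P (adjusted p = 0.135), and the centre was not called above it (1.34 ± 0.32, adjusted p = 0.0587). That difference was called without replicate 1 of IVDS2-C (adjusted p = 0.00542) and when p-values were adjusted over probe sets with 1 gene (adjusted p = 0.0477).

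From stage 2 to stage 3 TPM2 rose again. IVDS3 stood above IVDS2 by 2.35 ± 0.47 on MmuSTS.1894.1.S1_at (5.10-fold, adjusted p = 0.00482) and by 2.39 ± 0.32 on MmugDNA.5740.1.S1_s_at (5.25-fold, adjusted p = 0.000557). Against the centre alone IVDS3 was not called higher (0.95 ± 0.47, adjusted p = 0.247, and 1.05 ± 0.32, adjusted p = 0.0596), although MmugDNA.5740.1.S1_s_at was called without replicate 2 of IVDS2-C (adjusted p = 0.00459) and when p-values were adjusted over probe sets with 1 gene (adjusted p = 0.0484). Against the periphery it was higher by 4.69 ± 0.47 (adjusted p = 8.33e-05) and 4.94 ± 0.32 (adjusted p = 7.44e-06).

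The other 5 TPM2 probe sets showed far smaller changes. MmugDNA.6751.1.S1_at had -0.67 and -0.26 in ES cells, 0.04 and -0.04 in IVDS2 cells, 0.20 and 0.94 in IVDS2-C cells, -0.30 and -0.65 in IVDS2-P cells, and 0.76 on both IVDS3 arrays. It followed the leading pair in direction, with r = 0.915 to MmugDNA.5740.1.S1_s_at over the 10 arrays, but ES and IVDS2-P arrays overlapped. TPM2 rose on it by 1.22 ± 0.24 in IVDS3 cells (2.33-fold, adjusted p = 0.00307) and by 1.03 in IVDS2-C cells (adjusted p = 0.0146) against ES cells, by 1.05 in IVDS2-C against IVDS2-P (adjusted p = 0.0356) and by 0.76 in IVDS3 against IVDS2 (adjusted p = 0.0407). Of these, the call of IVDS3 against ES held without any one array, and the others were lost without at least 2 of the arrays.

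MmuSTS.2888.1.S1_at went the other way between the stages. It was lower in IVDS3 than in IVDS2-P cells (-1.13 ± 0.34, adjusted p = 0.0298), where the leading pair was higher. That call was lost with only the 4 arrays compared (adjusted p = 0.0501) and without certain single arrays. This probe set had -1.32 and -0.48 in IVDS3 cells, against 0.27 and 0.80 in IVDS2 cells. TPM2 thus fell on it by 1.44 ± 0.34 (2.71-fold, adjusted p = 0.0105), which was lost without replicate 2 of IVDS2 (adjusted p = 0.0826) or replicate 1 of IVDS3 (adjusted p = 0.0924). MmugDNA.26041.1.S1_at ranged over 0.80 log2 units and fell in IVDS3 against ES cells by 0.54 ± 0.14 (adjusted p = 0.0157), a call lost without replicate 2 of ES (adjusted p = 0.0809) or replicate 1 of IVDS3 (adjusted p = 0.118). MmugDNA.6549.1.S1_at, with a range of 1.41, and MmugDNA.26762.1.S1_at, with a range of 0.56, were not called in any of the 6 comparisons. Without replicate 1 of ES, MmugDNA.26762.1.S1_at was called lower in IVDS2 (adjusted p = 0.0473), and MmugDNA.26041.1.S1_at in IVDS2-C (adjusted p = 0.0462) and IVDS2-P (adjusted p = 0.0265). Which TPM2 transcripts each probe set reads was not analysed here, and the suffix _s_at marks a probe set whose probes can match more than 1 transcript.

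**Figure D1:**
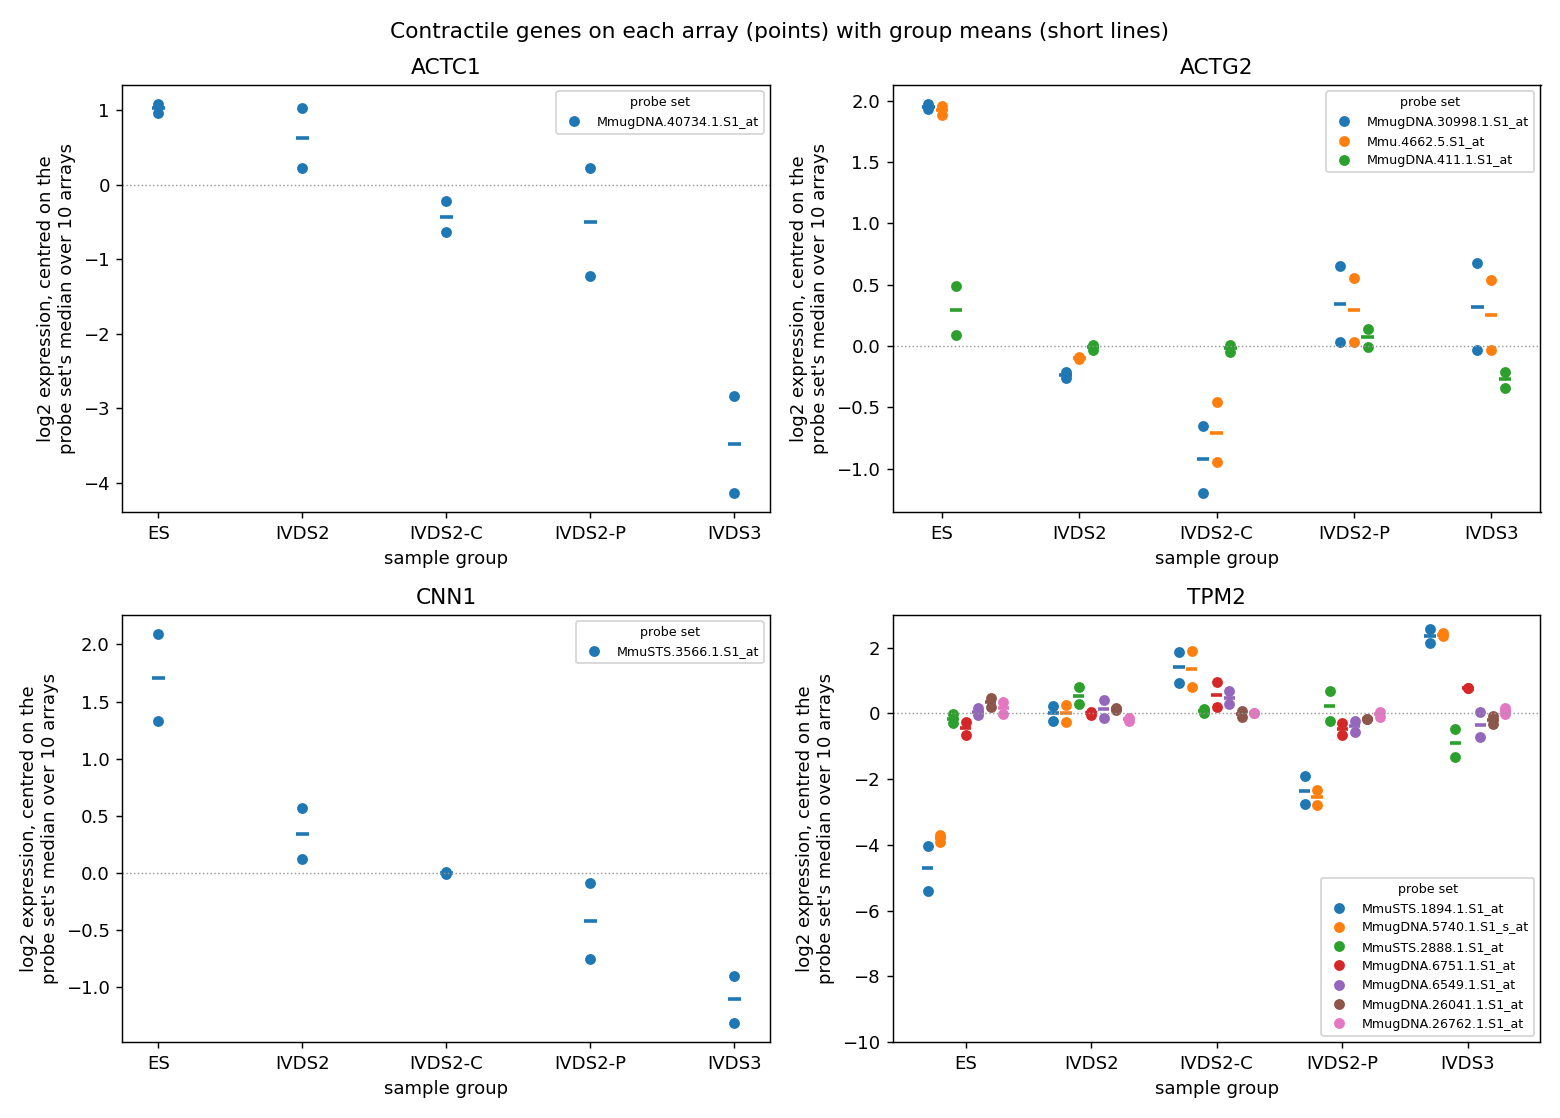
Log2 expression of the 12 probe sets of ACTC1, ACTG2, CNN1 and TPM2 (vertical axes, centred on each probe set's median over the 10 arrays) in the 5 sample groups; points are single arrays, 2 a group, and short lines are group means. The means of ACTC1, ACTG2 and CNN1 are highest in ES cells, although the ES and IVDS2 arrays of ACTC1 overlap. The TPM2 probe sets MmuSTS.1894.1.S1_at and MmugDNA.5740.1.S1_s_at range from -5.41 in ES cells to 2.56 in IVDS3 cells while the other 5 stay between -1.32 and 0.94.

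Averaged over its 7 probe sets, as genes were in the gene-level fit, TPM2 rose by 1.31 ± 0.20 in IVDS2 (adjusted p = 0.00361), by 1.78 in IVDS2-C (adjusted p = 0.000387) and by 1.82 in IVDS3 cells (adjusted p = 9.57e-05) against ES cells. The average change was thus much smaller than that of the leading pair. At gene level the periphery (0.41 ± 0.20, adjusted p = 0.219) and IVDS3 against IVDS2 (0.50 ± 0.20, adjusted p = 0.0753) were not called, whereas the most variable probe set called both (2.37, adjusted p = 0.0173, and 2.35, adjusted p = 0.00454).

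Counted over the 12 probe sets, IVDS2 against ES had 2 higher and 3 lower calls, where 8.71% of all probe sets tested were called, 4.92% higher and 3.79% lower. IVDS2-C against ES had 3 higher and 3 lower (of all, 21.5% called, 11.3% higher and 10.2% lower), and IVDS2-P against ES had 2 higher and 3 lower (7.55%, 4.97% and 2.58%). IVDS3 against ES had 3 higher and 6 lower (37.8%, 17.9% and 19.9%). IVDS2-C against IVDS2-P had 3 higher and 2 lower (5.84%, 3.85% and 2.00%), and IVDS3 against IVDS2 had 3 higher and 3 lower (28.6%, 13.6% and 15.0%). Of the comparisons used for neighbours in the order of levels, IVDS2-C against IVDS2 had 3.49% of all probe sets called, IVDS2-P against IVDS2 0.950%, IVDS3 against IVDS2-C 14.9% and IVDS3 against IVDS2-P 30.9%. The medians of the members were -0.26, -0.23, -0.33, -0.55, 0.11 and -0.01 over these comparisons, beside -0.02, -0.08, -0.06, -0.11, -0.02 and -0.08 over all probe sets. The first 4 comparisons share the ES arrays, and members of a gene share their target.

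**Figure D2:**
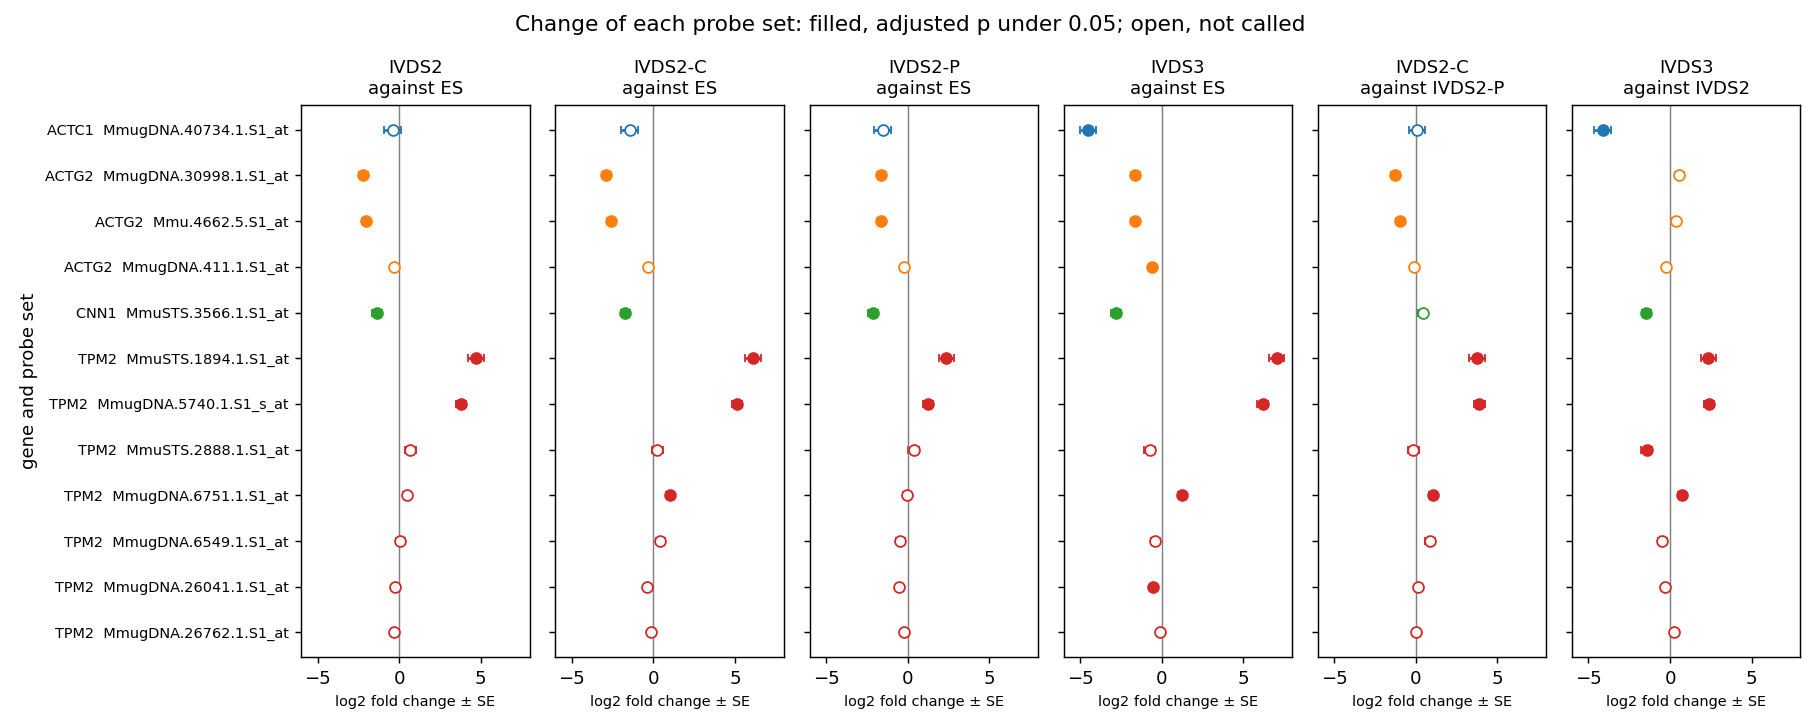
Log2 fold change (horizontal axes, ± SE) of each of the 12 probe sets in the 6 comparisons, coloured by gene; filled points have an adjusted p under 0.05 and open points do not. The TPM2 pair at 7.06 and 6.19 and ACTC1 at -4.51 lie farthest from 0 in IVDS3 against ES, and in IVDS2-C against IVDS2-P the TPM2 pair (3.75 and 3.89) and the ACTG2 pair (-1.27 and -1.0) lie on opposite sides of 0.

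Actins and tropomyosins form families of very similar sequence, so probes of one member may also bind transcripts of another, and how much they did was not tested. ACTB and ACTG1, the cytoplasmic actins of all cells, were the other actins analysed. They were not called in any of the 6 comparisons without a replicate block. Between centre and periphery they differed by 0.19 ± 0.11 (adjusted p = 0.344) and 0.42 ± 0.14 (adjusted p = 0.0985). ACTA1, ACTA2, TPM4, CNN2 and CNN3 were not analysed here.

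TPM1, the alpha tropomyosin, rose as TPM2 did in IVDS2, IVDS2-C and IVDS3 cells. Its probe set MmugDNA.1821.1.S1_s_at had -1.25 and -1.55 in ES cells, -0.13 and 0.13 in IVDS2 cells, 0.27 and 0.57 in IVDS2-C cells, -1.52 and -0.74 in IVDS2-P cells, and 0.20 and 0.40 in IVDS3 cells. ES and IVDS2-P arrays overlapped, and both lay below all others. Averaged over its 5 probe sets, TPM1 rose against ES cells by 1.25 ± 0.23 in IVDS2 (adjusted p = 0.00784), by 1.57 in IVDS2-C (adjusted p = 0.00129) and by 1.13 in IVDS3 cells (adjusted p = 0.00302). IVDS2-P was not called against ES cells (0.24 ± 0.23, adjusted p = 0.513).

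TPM1 was higher in the centre than in the periphery by 1.33 ± 0.23 (2.52-fold, adjusted p = 0.00871), a call lost without replicate 2 of IVDS2-C (adjusted p = 0.0659). The IVDS2 call was lost without replicate 2 of IVDS2 (adjusted p = 0.0598). By its most variable probe set alone TPM1 was not called in IVDS2 (adjusted p = 0.168) or IVDS3 against ES (adjusted p = 0.0863), nor in the centre against the periphery (adjusted p = 0.0975). Of the 5 TPM1 probe sets, 4 were called in IVDS2 and in IVDS2-C, 0 in IVDS2-P and 3 in IVDS3 against ES cells. Of all probe sets, 8.71%, 21.5%, 7.55% and 37.8% were called in these comparisons. MmugDNA.6545.1.S1_at departed from the rest, with -0.52 and -0.42 in IVDS3 cells, against 0.71 and 1.23 in IVDS2 cells (-1.44 ± 0.26, adjusted p = 0.00285). TPM3, a tropomyosin of slow muscle and non-muscle cells, had no called probe set in 4 comparisons. Of its 2 probe sets, MmuSTS.4675.1.S1_at fell in IVDS3 against ES (-0.5 ± 0.13, adjusted p = 0.0157) and against IVDS2 (-0.43 ± 0.13, adjusted p = 0.0381). Of all probe sets, 37.8% and 28.6% were called there. The first call was lost with only the 4 arrays compared (adjusted p = 0.0667), the second with arrays centred on their median (adjusted p = 0.0689). Both were also lost without certain single arrays.

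**Figure D3:**
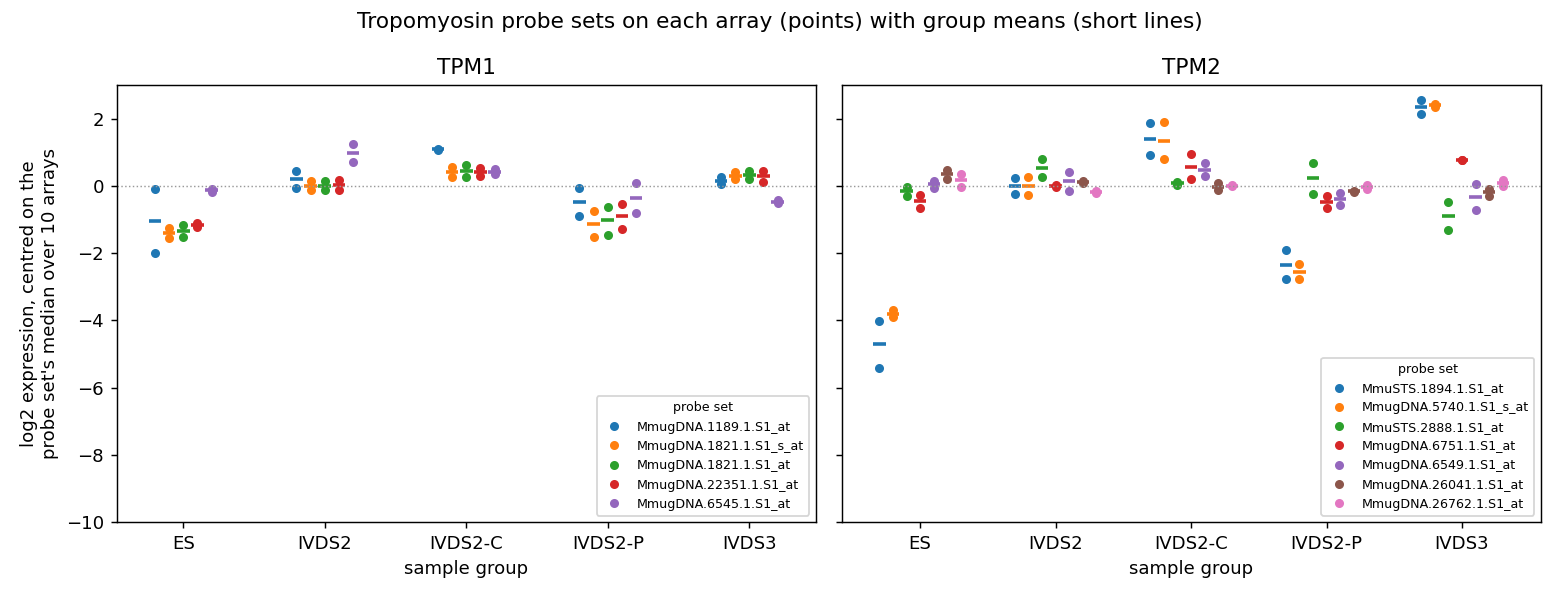
Log2 expression (vertical axis, centred on each probe set's median over the 10 arrays) of the 5 TPM1 and the 7 TPM2 probe sets in the 5 groups; points are single arrays and short lines are group means. ES and IVDS2-P arrays are the lowest for 3 of the TPM1 probe sets and for the leading TPM2 pair, and the span of that pair (7.96 and 6.34 log2 units) is wider than that of any TPM1 probe set.

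Smooth muscle genes as a group did not move one way in IVDS3 or IVDS2-C cells against ES cells. Of the 25 genes of a smooth muscle contractile list, 21 were measured, and it holds ACTG2, CNN1 and TPM2. Without these 3, 18 genes remained. In IVDS3 against ES cells 4 of the 18 rose and 4 fell, with a median of -0.14 beside -0.13 over all 13191 genes, of which 49.7% were called, 21.1% higher and 28.6% lower. In IVDS2-C against ES cells 4 rose and 4 fell (median 0.08 beside -0.11, with 30.1% of all genes called, 13.7% higher and 16.5% lower).

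The genes that rose in IVDS3 cells included KCNMB1, the beta subunit of the calcium-activated potassium channel of smooth muscle (2.71 ± 0.30, 6.54-fold, adjusted p = 9.78e-05), SYNPO2, an actin-bundling protein (1.97 ± 0.24, adjusted p = 0.000173) and PGM5, a protein of muscle cell adhesions (1.34 ± 0.27, adjusted p = 0.00303). Those that fell included PDLIM7, a cytoskeletal adaptor (-1.77 ± 0.24, adjusted p = 0.000331), FHL1, a LIM protein of muscle (-1.22 ± 0.13, adjusted p = 7.54e-05), and MYH11, the smooth muscle myosin heavy chain (-0.98 ± 0.30, adjusted p = 0.0226), whose call was lost without replicate 1 of ES (adjusted p = 0.122) or replicate 1 of IVDS3 (adjusted p = 0.165). MYH11 had -0.58 and 0.11 in IVDS3 cells, against 0.99 and 0.51 in ES cells. TAGLN, an actin-binding protein of smooth muscle and of activated fibroblasts, was not called in IVDS3 cells (0.23 ± 0.25, adjusted p = 0.455).

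In the other comparisons, 3 of the 18 rose and 0 fell in IVDS2 against ES (median 0.22 beside -0.04, 12.7% of all genes called, 6.50% higher and 6.23% lower), 0 rose and 1 fell in IVDS2-P against ES (median -0.24 beside -0.08, 11.0% called, 6.31% higher and 4.67% lower), and 2 rose and 3 fell in IVDS3 against IVDS2 (median -0.22 beside -0.10, 39.7% called, 17.6% higher and 22.2% lower). The gene that fell in the periphery was CALD1, caldesmon, which binds actin and tropomyosin (-0.56 ± 0.11, adjusted p = 0.0149). That call was lost without replicate 2 of ES or either IVDS2-P array (highest adjusted p 0.0824) and when only its most variable probe set was tested (adjusted p = 0.579). MYL9, a regulatory myosin light chain, fell in IVDS3 against IVDS2 by 0.78 ± 0.23 (adjusted p = 0.0252), a call lost without replicate 2 of IVDS2 (adjusted p = 0.15) or replicate 1 of IVDS3 (adjusted p = 0.185).

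Between centre and periphery 6 of the 18 rose and 0 fell, with a median of 0.50 beside -0.03 over all genes, of which 9.59% were called, 5.64% higher and 3.95% lower. TAGLN had 0.22 and 0.36 in the centre, against -1.19 and -0.51 in the periphery, and rose by 1.14 ± 0.25 (2.21-fold, adjusted p = 0.0233). KCNMB1 rose by 1.67 ± 0.30 (adjusted p = 0.0109), CALD1 by 0.66 ± 0.11 (adjusted p = 0.0081), SYNPO2 by 1.04 ± 0.24 (adjusted p = 0.0317) and PGM5 by 1.07 ± 0.27 (adjusted p = 0.0413). These calls leaned on few arrays: those of TAGLN, KCNMB1, CALD1, SYNPO2 and PGM5 were all lost without replicate 2 of IVDS2-C (adjusted p = 0.152, 0.0804, 0.0804, 0.094 and 0.304) and without replicate 1 of IVDS2-P (adjusted p = 0.142, 0.092, 0.0729, 0.113 and 0.237). By its most variable probe set CALD1 was not called there either (adjusted p = 0.431). With only the 4 arrays compared, 3 of the 21 measured genes of the whole list rose, and with all arrays 7 did. ACTG2 was the 1 gene of the list that fell in the centre.

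The mean over the 18 genes was -0.46 and -0.08 on the IVDS2-P arrays, and between -0.09 and 0.33 on the other 8 arrays. Myocardin (MYOCD), the cofactor of serum response factor that drives smooth muscle genes, was called in no comparison with all arrays and no replicate block. It differed by 0.97 ± 0.39 for IVDS2-C against IVDS2-P (adjusted p = 0.158) and by -1.04 ± 0.39 for IVDS3 against IVDS2 (adjusted p = 0.0628). The last was called with only the 4 arrays compared (adjusted p = 0.029), without replicate 1 of IVDS2 (adjusted p = 0.0363) and without either IVDS2-P array (adjusted p = 0.0272). MYLK and SRF were not analysed here.

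Genes of the cardiac and striated sarcomere, to which ACTC1 belongs, were also called in both directions. Without ACTC1, 24 of the 30 genes of that list were measured. In IVDS3 against ES cells 6 rose and 10 fell (median -0.29 beside -0.13), where 21.1% of all genes were higher and 28.6% lower. In IVDS2-C against ES 5 rose and 4 fell (median -0.15 beside -0.11; of all genes 13.7% higher and 16.5% lower), and in IVDS2 against ES 3 rose and 2 fell (median 0.08 beside -0.04; 6.50% and 6.23%). In IVDS2-P against ES 0 rose and 3 fell (median -0.14 beside -0.08; 6.31% and 4.67%). In IVDS3 against IVDS2 6 rose and 7 fell (median -0.18 beside -0.10; 17.6% and 22.2%), and in the centre against the periphery 4 rose and 2 fell (median 0.06 beside -0.03; 5.64% and 3.95%).

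Like ACTC1, NPPB, the natriuretic peptide B, fell in IVDS3 cells (-3.15 ± 0.52 against ES, adjusted p = 0.00098, and -3.73 ± 0.52 against IVDS2, adjusted p = 0.00056). So did TNNC2, the troponin C of fast skeletal muscle (-2.65 ± 0.22 against ES, adjusted p = 2.09e-05), TNNT1, a troponin T of slow skeletal muscle (-1.32 ± 0.15, adjusted p = 0.000125), and TNNI3, the cardiac troponin I (-1.38 ± 0.14, adjusted p = 6.18e-05). Others rose. CASQ2, the calcium store protein of the cardiac sarcoplasmic reticulum, had 1.31 and 1.72 in IVDS3 cells, against -1.59 and -1.72 in ES cells, a rise of 3.17 ± 0.24 (9.0-fold, adjusted p = 1.3e-05). TNNC1, the troponin C of heart and slow muscle, rose by 2.09 ± 0.21 (adjusted p = 5.93e-05).

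ANKRD1, a nuclear and sarcomeric ankyrin repeat protein, peaked in the colony centre. It had 2.27 and 2.09 in IVDS2-C cells, against -1.55 and -0.59 in IVDS2-P cells, and rose in the centre by 3.25 ± 0.27 (9.53-fold, adjusted p = 0.000459). MYL7, the atrial regulatory light chain, had 1.24 and 1.30 in the centre, against -1.25 and -0.61 in the periphery (2.20 ± 0.40, adjusted p = 0.0121), a call lost without replicate 2 of IVDS2-C (adjusted p = 0.0731) or replicate 1 of IVDS2-P (adjusted p = 0.0992).

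**Figure D4:**
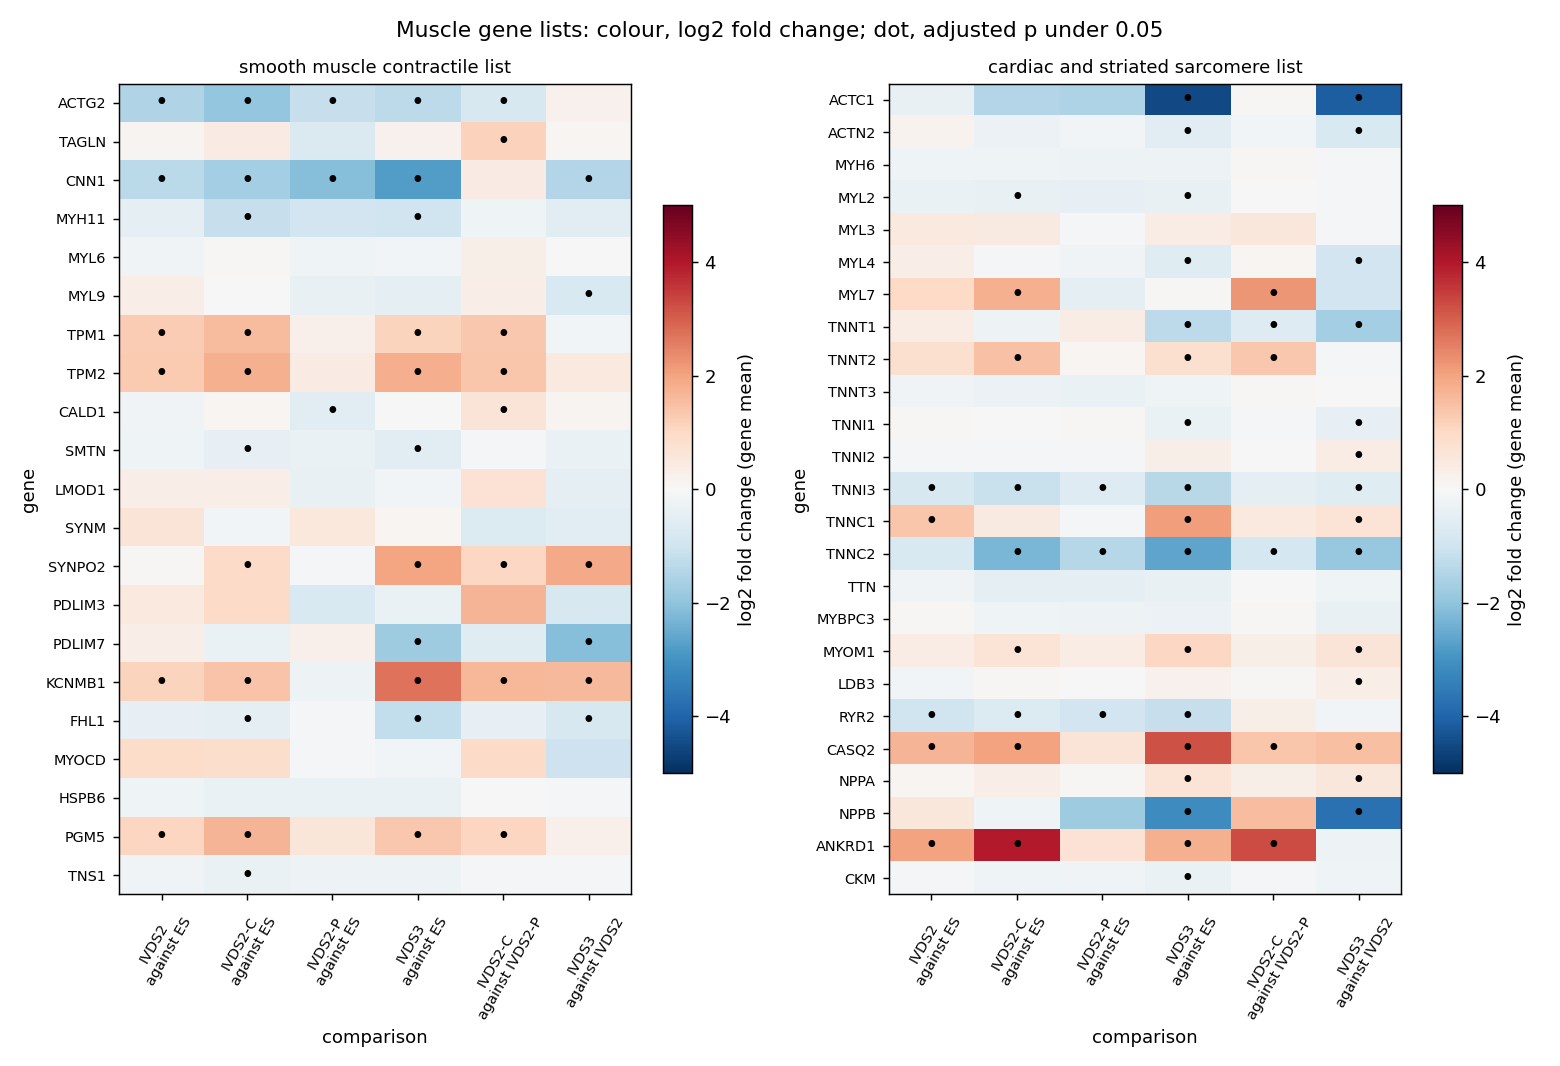
Log2 fold change (colour scale, blue lower and red higher) of the measured genes of the smooth muscle contractile list (left, 21 genes) and the cardiac and striated sarcomere list (right, 25 genes) in the 6 comparisons; a dot marks an adjusted p under 0.05. Rises and falls stand side by side in both lists, with CNN1 (-2.81) and KCNMB1 (2.71) at the ends of the smooth muscle list, and ACTC1 (-4.51) and CASQ2 (3.17) at those of the sarcomere list, in IVDS3 against ES.

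Of 11 measured regulators of heart and skeletal muscle, 5 rose in IVDS2 against ES cells (median 0.29 beside -0.04; 6.50% of all genes higher), 4 rose and 1 fell in IVDS2-C (median -0.07 beside -0.11; 13.7% higher and 16.5% lower), 2 rose in IVDS2-P (median 0.09 beside -0.08; 6.31% higher) and 3 rose in IVDS3 (median -0.21 beside -0.13; 21.1% higher). ISL1, a factor of heart progenitors also found in other embryonic cells, had 1.09 and 1.62 in the centre, against -2.44 and -1.66 in the periphery, a rise of 3.41 ± 0.25 (10.6-fold, adjusted p = 0.000278). MEF2C, a muscle transcription factor, rose in IVDS3 against ES by 1.76 ± 0.17 (adjusted p = 5.51e-05) and in the centre against the periphery by 1.20 ± 0.17 (adjusted p = 0.00445). Between centre and periphery 3 of the 11 regulators rose and 0 fell (median -0.06 beside -0.03, with 5.64% of all genes higher and 3.95% lower). In IVDS3 against IVDS2 1 rose and 4 fell, PAX3, MYF6 and HAND1 among them (median -0.09 beside -0.10). Of all genes, 17.6% were higher and 22.2% lower there.

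Pathways known to act on contractile genes were examined next. Of 14 measured regulators and targets of serum response factor and MRTF, 2 rose and 3 fell in IVDS3 against ES (median -0.12 beside -0.13; 49.7% of all genes called), and 1 rose and 0 fell in the centre against the periphery (median 0.49 beside -0.03; 9.59% of all genes called). That gene was ANKRD1. TGFB1I1, also known as HIC-5, a coactivator of smooth muscle genes, fell against ES by 1.06 ± 0.26 in IVDS2 (adjusted p = 0.0304), by 1.14 in IVDS2-C (adjusted p = 0.0119), by 1.57 in IVDS2-P (adjusted p = 0.00725) and by 0.94 in IVDS3 (adjusted p = 0.0157), and each of these calls was lost without replicate 2 of ES (adjusted p = 0.156, 0.0736, 0.0593 and 0.103).

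Of 17 measured TGF-beta pathway genes, 8 rose and 1 fell in IVDS2-C against ES (median 0.47 beside -0.11; of all genes 13.7% higher and 16.5% lower) and 9 rose and 4 fell in IVDS3 against ES (median 0.34 beside -0.13; 21.1% and 28.6%). TGFBI, a matrix protein induced by TGF-beta, had 4.57 and 4.82 in IVDS3 cells, against -2.96 and -2.46 in ES cells, a rise of 7.41 ± 0.32 (adjusted p = 8.09e-07). In the centre it had 1.51 and 2.11, against 0.16 and -0.83 in the periphery (2.15 ± 0.32, adjusted p = 0.005). Others fell in IVDS3 against ES. ID1, a target of BMP signals, fell by 1.43 ± 0.32 (adjusted p = 0.00505), the ligand TGFB1 by 0.50 ± 0.10 (adjusted p = 0.00306) and the receptor TGFBR1 by 0.62 ± 0.18 (adjusted p = 0.02), the last a call lost without replicate 1 of ES (adjusted p = 0.0755) or replicate 1 of IVDS3 (adjusted p = 0.12). SKIL, a repressor of the pathway that the pathway itself induces, rose in the centre against the periphery by 1.39 ± 0.18 (adjusted p = 0.00287).

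Of the 25 non-muscle cytoskeleton genes listed, 18 were measured. In IVDS3 against ES 5 rose and 3 fell (median 0.02 beside -0.13; of all genes 21.1% higher and 28.6% lower), and in the centre against the periphery 2 rose and 0 fell (median 0.23 beside -0.03; 5.64% and 3.95%). These 2 were TAGLN2, a relative of TAGLN (1.71 ± 0.28, adjusted p = 0.0079, lost without replicate 2 of IVDS2-C or replicate 1 of IVDS2-P), and MYH9, the non-muscle myosin heavy chain (0.90 ± 0.13, adjusted p = 0.00441).

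Markers of other cells that use these genes moved with the groups too. Fibroblast genes, 19 of 24 measured, had a mean of 1.27 and 1.06 on the IVDS3 arrays, against -0.25 and -0.29 on the ES arrays, and 13 rose and 2 fell (median 0.99 beside -0.13; of all genes 21.1% higher and 28.6% lower). On the other 6 arrays the mean lay between -0.21 and 0.23. LUM, a matrix proteoglycan, rose by 5.48 ± 0.21 in IVDS3 (adjusted p = 3.85e-07) and DCN, decorin, by 4.57 ± 0.16 (adjusted p = 2.19e-07), while THY1 fell by 1.31 ± 0.14 (adjusted p = 6.84e-05). COL1A2, a chain of type I collagen, rose by 2.91 ± 0.16 (adjusted p = 2.91e-06), whereas COL1A1, the other chain, fell by 0.74 ± 0.24 (adjusted p = 0.0306), a call lost without any one ES or IVDS3 array (highest adjusted p 0.167).

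In the centre against the periphery 5 fibroblast genes rose and 3 fell (median 0.20 beside -0.03; of all genes 5.64% higher and 3.95% lower). COL1A2 rose there by 2.05 ± 0.16 (adjusted p = 0.000329) and LUM by 2.36 ± 0.21 (adjusted p = 0.000598). The 3 that fell were the transcription factors TWIST1 (-2.91 ± 0.35, adjusted p = 0.00213) and PRRX1 (-1.27 ± 0.30, adjusted p = 0.0347) and the surface protein THY1 (-0.61 ± 0.14, adjusted p = 0.0277). The calls of PRRX1 and THY1 were lost without either IVDS2-C array or replicate 1 of IVDS2-P (highest adjusted p 0.19 and 0.182). The part of feeder, co-culture or newly formed fibroblasts in the changes of TPM2, ACTC1, ACTG2 and CNN1 was not tested.

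Pericyte and endothelial genes, 11 of 13 measured, had a mean of -0.20 and -0.32 on the IVDS3 arrays, against 0.37 and 0.47 on the ES arrays. Of the 11, 1 rose and 5 fell (median -0.35 beside -0.13, with 21.1% of all genes higher and 28.6% lower). Genes of basal and myoepithelial cells, which also carry contractile proteins, were measured for only 6 of 13, with a mean of 1.01 and 0.94 on the IVDS3 arrays, against -0.18 and -0.26 on the ES arrays. In the centre their mean was 0.25 and 0.56, against -0.54 on both periphery arrays. TP63, the regulator of basal epithelium, rose in IVDS3 against ES by 3.01 ± 0.14 (adjusted p = 9.3e-07) and in the centre against the periphery by 2.33 ± 0.14 (adjusted p = 0.000119). In IVDS3 against ES 4 of the 6 rose and 1 fell (median 0.75 beside -0.13, with 21.1% of all genes higher and 28.6% lower). The 1 that fell was CAV1, a caveola protein that smooth muscle also carries (-1.72 ± 0.27, adjusted p = 0.000743). Basal keratins were not analysed here.

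Simple epithelial genes, all but 1 of 12 measured, had a mean of 0.11 and 0.46 in the centre, against -1.22 and -0.96 in the periphery. Between these areas 9 of 11 rose and 0 fell (median 1.25 beside -0.03, with 5.64% of all genes higher and 3.95% lower). The part of epithelial cells in the changes of the 4 genes was not tested. As a check of the labels, 1 of 9 measured pluripotency genes rose and 7 fell in IVDS3 against ES (median -3.16 beside -0.13). Of all genes, 21.1% were higher and 28.6% lower in that comparison. The pluripotency factor POU5F1 fell by 7.60 ± 0.79 in IVDS3 against ES (adjusted p = 6.84e-05) and by 5.08 ± 0.79 in IVDS2-C against ES (adjusted p = 0.00179). The 1 that rose was NANOG, another such factor, with 0.47 and 0.41 in IVDS3 cells, against -0.70 and -1.37 in ES cells (1.48 ± 0.19, adjusted p = 0.00026), and it was called higher than in ES cells in the other 3 groups as well. Of 9 measured hepatic genes, 1 rose and 4 fell in IVDS3 against ES (median -0.34 beside -0.13, with 21.1% of all genes higher and 28.6% lower). The riser was CYP3A4, a liver enzyme of drug metabolism (3.76 ± 0.16, 13.5-fold, adjusted p = 7.66e-07), and AFP, an early liver protein, fell by 0.64 ± 0.12 (adjusted p = 0.0022).

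Among 2486 genes with an SD over the arrays of at least 0.5, those most like each member were found by Pearson's r over the 10 arrays, given here as a description with no test. The profile of TPM2, averaged over its probe sets, was closest to FLRT2 (r = 0.989), CAVIN2 (r = 0.981) and TP63 (r = 0.975). CAVIN2 averaged -2.43 in ES, -0.00 in IVDS2, 1.39 in IVDS2-C, -1.69 in IVDS2-P and 1.28 in IVDS3 cells. These genes share the low values in ES and IVDS2-P cells.

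ACTC1 was closest to TEAD4 (r = 0.971), HK2 (r = 0.970) and PLAC9 (r = 0.967), each lowest in IVDS3 cells. ACTG2 was closest to ADORA2B (r = 0.964), C16H17orf58 (r = 0.958) and ABCC2 (r = 0.955), of which ADORA2B averaged 1.63 in ES, -0.55 in IVDS2, -0.67 in IVDS2-C, 0.30 in IVDS2-P and 0.28 in IVDS3 cells. CNN1 was closest to PRICKLE1 (r = 0.944), OLFM2 (r = 0.936) and PGM2L1 (r = 0.935), each highest in ES cells. The 10 arrays fall into 5 groups and are not independent points of a profile.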

How the data were processed

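RNA of 10 samples was measured on Affymetrix rhesus macaque arrays. RMA is named, with no version, per the submitters' processing notes. The deposited values were taken as log2: no header states the base, and read as natural logs the widest probe set would span 13.7 instead of 9.51 log2 units. They had been centred, since 0 of 44294 probe set medians lay beyond 1e-05. The 84 manufacturer's controls were left out. Of the 44210 probe sets tested, 22802 had 1 gene in the platform annotation, 316 several and 21092 none. Gene names are those of that annotation, which can be old. For 13191 genes, all probe sets of a gene were averaged.

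All 10 arrays entered 1 limma fit (3.58.1, R 4.3.3) with a term per group and empirical Bayes moderation, two-sided, with 5 residual degrees of freedom. P-values were adjusted by Benjamini-Hochberg over all probe sets, or all genes, within a comparison, and an adjusted p under 0.05 was a call. The members, gene lists and tests were chosen with earlier results of these data known. Besides the members and a few landmark genes, the text names up to 3 called genes of a list in each direction and comparison whose arrays do not overlap between groups, and the 3 genes most like each member. A gene named by this rule in 1 comparison is also given in others. Alternatives were centring arrays, fitting 4 arrays, a replicate block, leaving out each array, other probe set choices and robust moderation. The fit was also tested on simulated data. Background correction and a filter on dim probe sets were not run, since centred values hold no levels. Some listed genes, such as ACTA2, DES and MYLK, were not analysed here.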

Additional observations from a re-analysis of the deposited data

How the results depend on the processing

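Most results kept their direction and side of the threshold. Part of this was fixed beforehand, since a setting that leaves the values of the compared arrays unchanged cannot change a direction. Results that were never called also count among those kept. The lists are counted here with the members in them. The labels give the same replicate numbers in all groups, but say nothing of a shared culture or day. Deviations of same-numbered samples correlated at over 0.1 in 5 of 10 pairs of groups (from -0.119 to 0.254 over probe sets), the highest between IVDS2 and IVDS2-P. The pairs were not all above that mark, so the numbers were not taken as pairing the samples. With the replicate block, member probe sets gained 8 calls over the 10 comparisons and lost 0, namely ACTC1 in IVDS2-C against ES (adjusted p = 0.0321), CNN1 in IVDS3 against IVDS2-P (-0.68, adjusted p = 0.0205), and, of TPM2, MmugDNA.5740.1.S1_s_at in IVDS2-C against IVDS2 (adjusted p = 0.0182) and IVDS3 against IVDS2-C (adjusted p = 0.0131), MmuSTS.2888.1.S1_at in IVDS3 against IVDS2-C (-0.97, adjusted p = 0.0405), MmugDNA.6549.1.S1_at in IVDS2-C against IVDS2-P (0.87, adjusted p = 0.0436) and IVDS3 against IVDS2-C (-0.82, adjusted p = 0.03), and MmugDNA.26041.1.S1_at in IVDS2-P against ES (-0.51, adjusted p = 0.0421). ACTG1 in IVDS2-C against IVDS2-P (0.42, adjusted p = 0.0464), MYOCD in IVDS3 against IVDS2 (adjusted p = 0.0357) and MYL9 in IVDS3 against ES (-0.45, adjusted p = 0.0402) were also called with it. Likewise, ACTC1 as a gene in IVDS2-C against ES (-1.46, adjusted p = 0.0308) and TPM2 as a gene in IVDS3 against IVDS2 (0.50, adjusted p = 0.0255) were called, ACTG2 as a gene in IVDS2-C against IVDS2-P was not (-0.79, adjusted p = 0.051), and of the lists 1 smooth muscle gene rose in IVDS2-P against ES and 1 sarcomere gene fell in IVDS2-C against IVDS2-P. With only the 4 arrays compared, ACTC1 as a gene in IVDS2-C against ES was called (-1.46, adjusted p = 0.00715) and ACTG2 in IVDS2-C against IVDS2-P was not (-0.79, adjusted p = 0.0824). There 0 member probe sets fell in IVDS2-C against IVDS2-P, where 2 did with all arrays. Of smooth muscle genes 3 fell in IVDS2-C against ES, and 3 rose and 0 fell in IVDS2-C against IVDS2-P. Of sarcomere genes 1 fell in IVDS2 against ES, 1 in IVDS2-P against ES and 0 in IVDS2-C against IVDS2-P. The most variable probe set gave TPM2 changes of 2.37 in IVDS2-P against ES (adjusted p = 0.0173) and 2.35 in IVDS3 against IVDS2 (adjusted p = 0.00454), with 1 smooth muscle gene higher in IVDS2-P and 1 sarcomere gene lower in IVDS2-C against IVDS2-P. Robust moderation left 1 member probe set higher in IVDS2-P. Centring arrays left 2 sarcomere genes lower in IVDS2-C against ES and turned MmugDNA.6751.1.S1_at in IVDS2-P against ES to 0.01. The cause was not tested.

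Leaving out 1 array at a time changed the call, direction or count 76 times over the 4 genes and the counts below, 11 each without replicate 2 of IVDS2-C or replicate 1 of IVDS2-P, 10 without replicate 2 of ES, and 3 to 8 without each of the others. It moved ACTC1 between -0.79 and 0.01 in IVDS2 against ES, between -1.67 and -1.25 in IVDS2-C against ES and between -0.65 and 0.79 in IVDS2-C against IVDS2-P. ACTG2 as a gene lay between -1.37 and -0.94 in IVDS2-P against ES (adjusted p up to 0.0743), between -1.0 and -0.57 in IVDS2-C against IVDS2-P and between -0.02 and 0.45 in IVDS3 against IVDS2. CNN1 in IVDS2 against ES lay between -1.74 and -0.98, TPM2 as a gene in IVDS3 against IVDS2 between 0.32 and 0.69, and TPM1 in IVDS2-P against ES between -0.17 and 0.64. TPM2 probe sets that turned were MmuSTS.2888.1.S1_at in IVDS2-P against ES (-0.07 to 0.83) and IVDS2-C against IVDS2-P (-0.60 to 0.30), MmugDNA.6751.1.S1_at in IVDS2-P against ES (-0.22 to 0.19), MmugDNA.6549.1.S1_at in IVDS2 against ES (-0.20 to 0.36), and MmugDNA.26762.1.S1_at in IVDS2-C against ES (-0.33 to 0.04), IVDS3 against ES (-0.27 to 0.10) and IVDS2-C against IVDS2-P (-0.03 to 0.11), none of them called with all arrays. Member probe sets called lower numbered 2 to 5 in IVDS2, 3 to 5 in IVDS2-C, 0 to 2 in IVDS2-C against IVDS2-P and 1 to 3 in IVDS3 against IVDS2, and those called higher in IVDS2-P 0 to 2. Smooth muscle genes higher numbered 1 to 4 in IVDS2, 3 to 5 in IVDS2-C, 0 to 1 in IVDS2-P and 1 to 8 in IVDS2-C against IVDS2-P, and those lower 1 to 3, 2 to 5, 1 to 6 and 0 to 1 in the same comparisons. Sarcomere genes higher numbered 3 to 5 in IVDS2-C, 0 to 1 in IVDS2-P, 1 to 5 in IVDS2-C against IVDS2-P and 1 to 6 in IVDS3 against IVDS2, and those lower 1 to 3 in IVDS2, 2 to 5 in IVDS2-C, 1 to 6 in IVDS2-P, 6 to 12 in IVDS3 and 0 to 3 in IVDS2-C against IVDS2-P.

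Groups of 2 arrays limit every call. The values are centred, so signal over background is unknown, and whether a probe set with a small range read any transcript was not tested.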
